A study of Mus musculus with 17 samples.

Results

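Trp53, the mouse gene of the tumor suppressor p53, and 9 genes known as its transcriptional targets were followed in distant MC38 tumors. The 10 genes were found by their names in the deposited table of 21931 genes, and each was present once: Trp53, Cdkn1a, Mdm2, Ccng1, Bax, Phlda3, Sesn2, Eda2r, Aen and Zmat3. They lie on 8 chromosomes, with Trp53 and Ccng1 both on chromosome 11, Bax and Aen both on chromosome 7, and Eda2r on X. MC38 is a mouse colon cancer line. C57BL/6J mice aged 6 to 8 weeks, with the genotype given as WT, carried a subcutaneous MC38 tumor on each flank. In the cryoablation group (Cryo), a cryoprobe froze 1 of the 2 tumors on day 7 in 2 cycles, each of 20 seconds by the labels, and the contralateral, non-ablated tumor was taken 5 days later for bulk RNA-seq. The other group (Con) was labelled as control with the same time point, and the comparison asks what freezing one tumor does to the other. There were 9 Con and 8 Cryo tumors. The published text of the study gives a longer freezing time and gives the sizes of the groups the other way round, and the labels were followed here, so every direction rests on them. Nothing in the labels states that each tumor came from a different mouse, so the p values measure the spread between these samples.

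p53 is a transcription factor that is held low by the ubiquitin ligase MDM2 and is released by DNA damage, oncogene activity and other stress. Its targets stop the cell cycle, repair DNA, adjust metabolism, start apoptosis and, through Mdm2, switch p53 itself off again. p53 is controlled mainly at the level of the protein, so that the mRNA of its targets is the usual readout of its activity. Counts per gene say nothing about the sequence of Trp53, and therefore nothing about whether the p53 of these cells was intact. In bulk tumors, fewer cells of one type and less RNA per cell cannot be told apart.

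p53 binds DNA as a tetramer at a response element made of a pair of adjoining 10-base units. In the RefSeq promoter windows (GRCm38.p6, from 250 bases before to 50 bases after each annotated start), the p53 consensus response element was searched with at most 3 mismatches over 20 bases, with the core C, the A or T pair after it and the core G of each unit intact. The element is palindromic, so both strands are read together. Of the members, 9 had a window and 3 held a match, in Cdkn1a, Aen and Trp53. A match was present in 0.572% of all 32851 windows and in 0.673% of 27025 genes. The 3 matches are shown with 5 flanking bases on each side, and the capitals mark the matched 20 bases.
Cdkn1a: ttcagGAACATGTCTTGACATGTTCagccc
Aen: aagccGGGCTTGTCCGGGCAAGGAGcttcc
Trp53: cggaaGGACTTGCCCTTACTTGTTAtggcg
The Cdkn1a match lay on chr17:29090928-29090947, plus strand, 51 bases before the upstream one of its 2 annotated starts, and had 1 mismatch. The window of its other start held no match. The Aen match, on chr7:78895937-78895956, plus strand, had 3 mismatches and began 121 bases before one of its annotated starts. The Trp53 match, on chr11:69580284-69580303, plus strand, had 3 mismatches and began 75 bases before the start. No match in the windows of Mdm2, Ccng1, Bax, Phlda3, Sesn2 and Eda2r says only that these letters are not in these windows.

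Total counts were 14154687 to 17898672 per tumor in Con (median 16048176) and 13524899 to 16847050 in Cryo (median 15130145). The mRNA signature of a colon epithelium was weak in both groups: the summed level of 10 epithelial markers was 25.9 to 107 CPM (counts scaled to library size, with TMM normalization) in Con and 20.5 to 229 in Cryo, and the intestinal factor Cdx2 was at 0 in every tumor. The 9 fibroblast markers summed to 7820 to 14000 CPM in Con and 5350 to 10400 in Cryo. Cryo replicates 2, 4 and 5 stood apart from the other 14 tumors on the first principal component of the most variable genes. This component held 68.1% of the variance of those genes, and the 3 tumors lay at -25.5, -30.8 and -31.5 against -9.7 to 16.7. They also had the highest short-gene index, the mean log2 deviation of 1639 tested genes under 2 kb minus that of 11356 longer genes, members left out. The index was 0.68, 0.69 and 0.86 in these 3 tumors, 0.33 in Con replicate 5, 0.27 in Con replicate 1 and at most 0.00 in the rest. Results that rest on the 3 Cryo tumors are therefore given with and without them.

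Trp53 was among the most highly expressed genes and its targets were spread over almost the whole range of expression. Per kb of listed gene length, the median level over the 17 tumors was 135 CPM per kb for Trp53, which lay at percentile 97.9 of the genes tested. Phlda3, whose product keeps the kinase AKT off the membrane, followed with 117 CPM per kb, and Trp53 exceeded it in 10 of 17 tumors, so the order of these neighbours was not fixed. After a gap without overlap came Ccng1 with 21.3 CPM per kb and Cdkn1a with 20.6, and Ccng1 was above Cdkn1a in only 9 of 17 tumors. Bax had 13.4 CPM per kb and Mdm2 9.8, with Bax above Mdm2 in 11 tumors. Aen (5.75 CPM per kb) and Sesn2 (5.45) could not be ordered, since Aen was above Sesn2 in 7 tumors. Zmat3 at 1.71 CPM per kb and Eda2r at 0.506 closed the order, each below its upper neighbour in all 17 tumors and without overlap of the ranges. Eda2r lay at percentile 9.1 of the genes tested and had 7 to 101 counts per tumor, against 4820 to 10428 for Trp53. Its values are therefore the least precise of the 10.

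No member differed between Cryo and Con after adjustment for multiple testing. All 10 passed the filter on low counts and were tested with edgeR among 13005 genes, and at an adjusted p under 0.05 none of the 10 was called, where the percentage over all genes was 0.0. At an unadjusted p under 0.05, 1 of 10 members was called, Sesn2, which was lower in Cryo. The number was 1 also without Cryo replicates 2, 4 and 5, but 4 without Cryo replicate 7, 3 without Con replicate 5 and 2 without Cryo replicate 3 or 6. Over all genes 639 (4.91%) had such a p, with 152 (1.17%) lower and 487 (3.74%) higher in Cryo. An absolute log2 fold change over 1 together with an unadjusted p under 0.05, the criterion used in the study, was met by none of the 10 members and by 64 genes (0.492%). The ranges of the groups overlapped for all 10 members, as for every gene tested (0.0% without overlap). The median log2 fold change of the members was -0.09, with 4 above and 6 below 0, beside -0.01 over all genes tested.

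**Figure D1:**
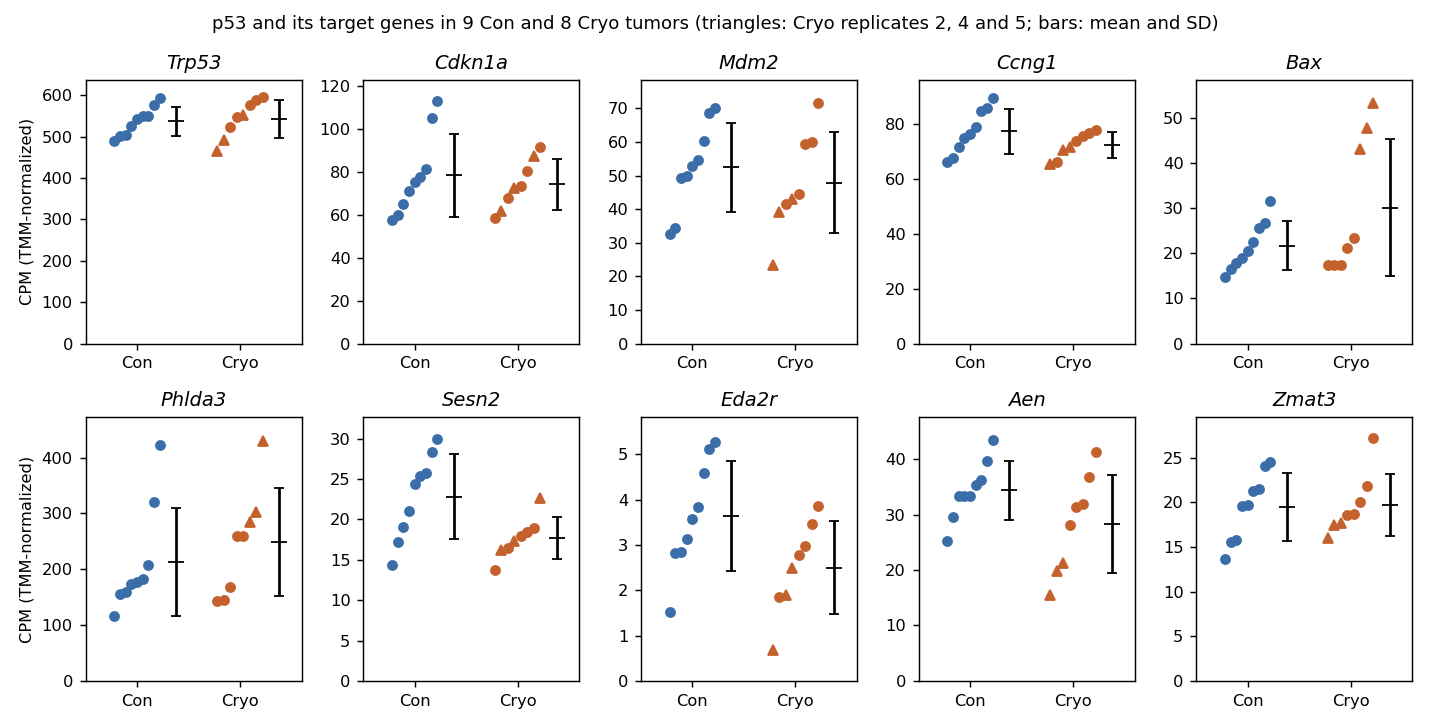
Normalized level (CPM, TMM-scaled, linear axes from 0) of the 10 genes in each of 9 Con (blue) and 8 Cryo (orange) tumors, sorted within a group, with mean and SD as bars and Cryo replicates 2, 4 and 5 as triangles. The groups overlap in every panel, the 8 Cryo tumors of Sesn2 all lie below the Con median of 24.4 CPM, and the triangles are the 3 highest tumors for Bax and the 3 lowest for Aen.

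Trp53 itself showed no detectable difference and had a narrow spread. It was 489 CPM in the lowest, 543 in the median and 594 in the highest Con tumor, and 465, 550 and 595 in Cryo. The ranges lay on top of each other, with 3 of 8 Cryo tumors below and 5 above the Con median. The mean was 537 ± 34.9 CPM (SD, n = 9) in Con and 543 ± 46.2 (SD, n = 8) in Cryo. The log2 fold change was 0.02 with a standard error of 0.08 and a 95% interval of -0.14 to 0.17, which bounds the fold between 0.906 and 1.13 (edgeR, adjusted p = 0.94; exact permutation p = 0.806). The within-group SD of Trp53 on the log2 scale was 0.11, at percentile 1.85 of all genes tested, so that it was one of the least variable genes of these tumors. Wrap53, which is read from the opposite strand and whose listed end lies 103 bases before the start of Trp53, was 16.4 ± 2.74 CPM in Con and 20.3 ± 6.63 in Cryo (log2 fold change 0.30, edgeR unadjusted p = 0.085; -0.05 without the 3 Cryo tumors). Of the paralogs, Trp63 had 1 to 15 counts and Trp73 0 to 5 counts per tumor, and neither passed the filter.

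Mdm2, the ligase that marks p53 for degradation, was widely scattered but not between groups. Its lowest, median and highest values were 32.7, 52.8 and 70.2 CPM in Con and 23.4, 43.7 and 71.7 in Cryo. Both extremes belonged to Cryo, replicate 5 at the bottom and replicate 7 at the top. The means were 52.5 ± 13.2 CPM (SD, n = 9) and 47.9 ± 15.1 (SD, n = 8). Cryo over Con gave a log2 fold change of -0.13, with a 95% interval of -0.54 to 0.28 (edgeR, adjusted p = 0.811; exact permutation p = 0.473), and it was 0.07 without the 3 Cryo tumors. It was -0.25 without Cryo replicate 7 and -0.03 without Cryo replicate 5. Mdm4, the MDM2 relative that masks the activation domain of p53, had a log2 fold change of -0.10 (edgeR, unadjusted p = 0.617). Without the 3 Cryo tumors the value for Mdm4 was 0.16 (edgeR, unadjusted p = 0.349).

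Cdkn1a encodes p21, the inhibitor of cyclin-dependent kinases through which p53 arrests the cycle. It reached 57.4 CPM in the lowest, 75.3 in the median and 113 in the highest Con tumor, and 58.2, 72.8 and 91.4 in Cryo. The Cryo tumors lay within the Con range. The means were 78.4 ± 19.3 CPM (SD, n = 9) and 74.0 ± 11.7 (SD, n = 8). With a log2 fold change of -0.08 and a 95% interval of -0.38 to 0.21, no difference was detected (edgeR, adjusted p = 0.831; exact permutation p = 0.667). Leaving out the 3 Cryo tumors gave -0.09, and leaving out single tumors gave from -0.14 (without Cryo replicate 7) to -0.01 (without Con replicate 4).

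Ccng1 encodes cyclin G1, which recruits a phosphatase to MDM2. Its values ran from 66.0 over a median of 76.5 to 89.5 CPM in Con and from 65.5 over 72.7 to 78.0 in Cryo. Of 8 Cryo tumors 6 were below the Con median, and the 4 highest Con tumors were above every Cryo tumor. For Ccng1 the log2 fold change was -0.10 with a 95% interval of -0.26 to 0.06 (edgeR, adjusted p = 0.738; exact permutation p = 0.163). Like Trp53, Ccng1 was among the steadiest genes, with a within-group SD of 0.13 at percentile 3.71.

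Among the genes of apoptosis, Bax was the member with the highest log2 fold change, and the value rested on 3 tumors. Bax, the BCL-2 family protein that opens the outer mitochondrial membrane, had 14.8, 20.5 and 31.5 CPM in the lowest, median and highest Con tumor and 17.4, 22.3 and 53.2 in Cryo. The 3 Cryo tumors with the high short-gene index had 43.0 (replicate 2), 47.8 (replicate 4) and 53.2 CPM (replicate 5), all above the other 14 tumors, which ended at 31.5. The other 5 Cryo tumors had 17.4 to 23.4 CPM, inside the Con range. The means were 21.7 ± 5.4 CPM (SD, n = 9) in Con and 30.1 ± 15.2 (SD, n = 8) in Cryo. The log2 fold change was 0.47 with a standard error of 0.25 (edgeR, unadjusted p = 0.0739, adjusted p = 0.728; exact permutation p = 0.192). It was -0.17 without the 3 tumors (edgeR, unadjusted p = 0.333) and 0.14 when the dependence of each library on gene length and GC content was fitted and entered as an offset (edgeR, unadjusted p = 0.279). Without Cryo replicate 5 alone it was 0.31. Bax is short, with a listed length of 1.58 kb, and the part of the index in its values was not tested beyond these fits. Bax overlaps Gm45808 on the same strand, which had 0 counts in every tumor. Bak1, the other pore-forming relative, had a log2 fold change of 0.27 (edgeR, unadjusted p = 0.215), and of -0.22 without the 3 tumors.

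Phlda3, at 1.56 kb the shortest member, behaved like Bax in part. It had 117, 178 and 423 CPM in the lowest, median and highest Con tumor and 143, 259 and 430 in Cryo. The highest values were those of Cryo replicate 5 with 430 and Con replicate 1 with 423, and both tumors belonged to the 5 with an index above 0. The means of 213 ± 96.7 CPM (SD, n = 9) and 249 ± 97.0 (SD, n = 8) differed by less than 1 SD. Its log2 fold change of 0.22 had a 95% interval of -0.32 to 0.77 (edgeR, adjusted p = 0.783; exact permutation p = 0.398). It was -0.14 without the 3 tumors and -0.01 with the length and GC offsets, so its direction was not stable. It was 0.07 without Cryo replicate 5 and 0.41 without Con replicate 1.

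Aen, an exonuclease that degrades DNA in dying cells, is long at 5.8 kb and had its lowest values in the same 3 tumors in which Bax was highest. In Con it was 25.2, 33.4 and 43.5 CPM in the lowest, median and highest tumor, and in Cryo 15.5, 29.7 and 41.3. Cryo replicates 2, 4 and 5 had 19.9, 15.5 and 21.2 CPM, all below the other 14 tumors. The means were 34.4 ± 5.32 CPM (SD, n = 9) and 28.3 ± 8.84 (SD, n = 8). The log2 fold change was -0.28 with a standard error of 0.17 (edgeR, unadjusted p = 0.109, adjusted p = 0.728; exact permutation p = 0.0808), and -0.03 without the 3 tumors. With the length and GC offsets it was -0.24 (edgeR, unadjusted p = 0.0783).

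Eda2r, the receptor for the A2 form of ectodysplasin, was low throughout. It had 1.53, 3.56 and 5.26 CPM in the lowest, median and highest Con tumor and 0.675, 2.64 and 3.86 in Cryo. In Cryo 7 of 8 tumors were below the Con median, and replicate 5 was the lowest of all. The means were 3.63 ± 1.21 CPM (SD, n = 9) and 2.50 ± 1.02 (SD, n = 8). Its log2 fold change of -0.53 was the lowest of the 10 and also the least certain, with a 95% interval of -1.12 to 0.06 (edgeR, unadjusted p = 0.0757, adjusted p = 0.728; exact permutation p = 0.0761). It was -0.29 without the 3 tumors and -0.49 with the offsets.

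Zmat3, a zinc finger protein that binds RNA and steers splicing, did not separate the groups. Its lowest, median and highest values were 13.7, 19.7 and 24.5 CPM in Con and 16.0, 18.7 and 27.2 in Cryo. For Zmat3 the log2 fold change was 0.01 with a 95% interval of -0.27 to 0.29 (edgeR, adjusted p = 0.977; exact permutation p = 0.884).

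Sesn2 was the 1 member called at an unadjusted p under 0.05. It encodes sestrin 2, which holds back mTORC1 when leucine is scarce or the cell is stressed, and is a target of ATF4 as well as of p53. It had 14.3, 24.4 and 30.0 CPM in the lowest, median and highest Con tumor, and 13.7, 17.6 and 22.7 in Cryo. All 8 Cryo tumors were below the Con median, while 4 of 9 Con tumors lay within the Cryo range. The means were 22.8 ± 5.28 CPM (SD, n = 9) and 17.7 ± 2.58 (SD, n = 8). The log2 fold change was -0.37 with a standard error of 0.14 and a 95% interval of -0.66 to -0.07, a fold of 0.776 (edgeR, unadjusted p = 0.0188, rank 121 of the 13005 genes; exact permutation p = 0.034). It did not pass the correction (edgeR, adjusted p = 0.728). The exact permutation p was no longer under 0.05 when any of Con replicates 1, 3, 4, 8 and 9 or Cryo replicates 1, 2 and 3 was left out, while the edgeR unadjusted p stayed under 0.05 without any single tumor. Without the 3 Cryo tumors it was -0.42 (edgeR, unadjusted p = 0.0195) and with the offsets -0.41 (edgeR, unadjusted p = 0.0107). The other sestrins did not share the difference in size, with log2 fold changes of -0.06 for Sesn1 (edgeR, unadjusted p = 0.569) and -0.16 for Sesn3 (edgeR, unadjusted p = 0.516), but the gap between the paralogs was not tested. Without the 3 Cryo tumors the value for Sesn3 was 0.10 (edgeR, unadjusted p = 0.661).

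**Figure D2:**
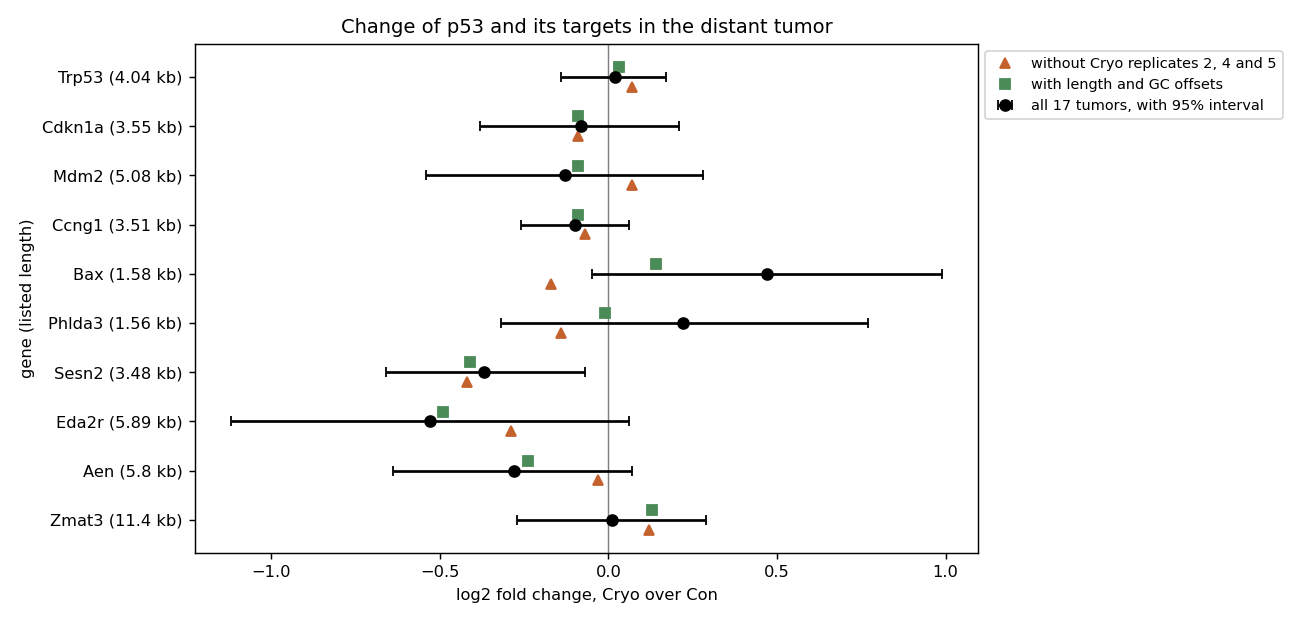
Log2 fold change of Cryo over Con for each gene from edgeR on all 17 tumors (black, bars are 95% intervals), without Cryo replicates 2, 4 and 5 (orange triangles), and with length and GC offsets (green squares). The interval of Sesn2, -0.66 to -0.07, is the one that leaves out 0, and Bax moves from 0.47 to -0.17 when the 3 tumors are left out.

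Across tumors, the 2 shortest members varied against several of the longer ones. When tumors were ordered by the short-gene index, Bax and Phlda3 were high and Mdm2, Aen and Eda2r low at the upper end, and the reverse held at the lower end. The mean log2 level in Cryo replicates 2, 4 and 5 minus that in the other 14 tumors was 1.22 for Bax and 0.78 for Phlda3. It was -1.05 for Eda2r, -0.85 for Aen, -0.61 for Mdm2 and -0.22 for Zmat3, the longest member at 11.4 kb, so that the size of the shift did not follow length among the long genes. Trp53, Cdkn1a, Ccng1 and Sesn2, with listed lengths between 3.48 and 4.04 kb, differed by -0.05 to -0.13. The share of each tumor's counts on genes under 2 kb ran from 11.3% in Cryo replicate 7 to 23.9% in Cryo replicate 5.

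**Figure D3:**
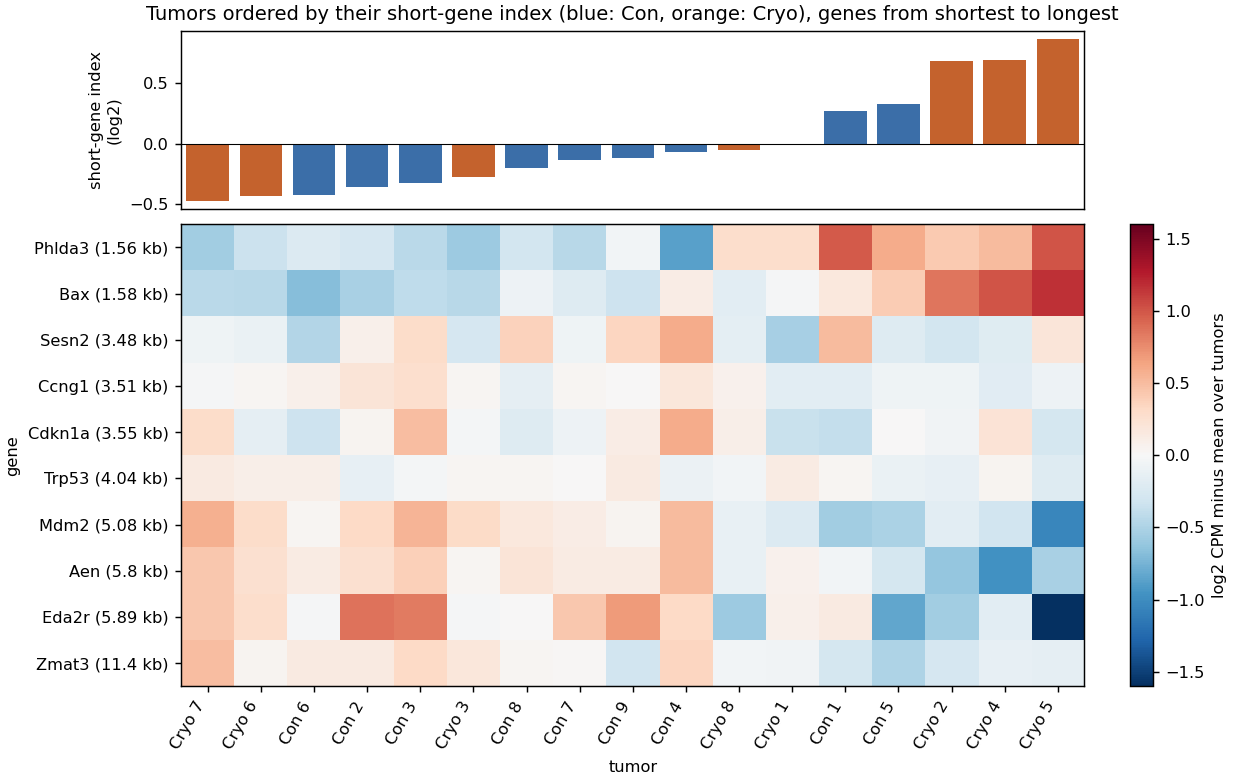
Upper panel, short-gene index (log2) of each tumor, blue for Con and orange for Cryo; lower panel, log2 CPM of each gene minus its mean over 17 tumors, genes from shortest to longest. At the right, in Cryo replicates 2, 4 and 5 with an index of 0.68 to 0.86, Bax and Phlda3 are red and Mdm2, Aen and Eda2r are blue.

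Pearson's r of log2 CPM was computed for all 45 pairs of members over the 17 tumors. Of these, 20 passed an adjusted p under 0.05 (100000 permutations, Benjamini-Hochberg over the 45 pairs), 11 positive and 9 negative. The weakest of them had an absolute r of 0.56, which 44.4% of the member pairs and 35.8% of all pairs of tested genes reached. Without Cryo replicates 2, 4 and 5 the number was 9, all of them among the 20, and an absolute r of 0.67 was reached by 20.0% of member pairs and 19.5% of all pairs. When the dependence of each library on length and GC content was subtracted from the log2 values, 4 remained, also among the 20, and an absolute r of 0.67 was then reached by 8.89% of member pairs and 16.9% of all pairs. High correlations were thus common among all genes of these libraries, and nothing about the members is read from the number of passing pairs. The median r of the 45 pairs was 0.20 (0.13 without the 3 tumors, 0.18 with the trend removed), beside 0.00 over all pairs of tested genes. The sign was the same within Con and within Cryo for 33 of 45 pairs, and for each of the 20.

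The 4 pairs that passed in the trend-corrected values all included Mdm2. Mdm2 with Cdkn1a had r = 0.58 (rho = 0.57, permutation adjusted p = 0.0337), 0.65 in the 14 tumors (permutation adjusted p = 0.0518) and 0.74 with the trend removed (permutation adjusted p = 0.0319). Without the 2 tumors farthest from the median of Cdkn1a it was 0.42, so this pair rested in part on them. Mdm2 with Eda2r had r = 0.80 (rho = 0.71, permutation adjusted p = 0.00225), 0.62 in the 14 tumors (permutation adjusted p = 0.0714) and 0.69 with the trend removed (permutation adjusted p = 0.0400). Mdm2 with Aen had r = 0.74 (rho = 0.86, permutation adjusted p = 0.00534), 0.87 in the 14 tumors and 0.67 with the trend removed (permutation adjusted p = 0.0400). Within the groups this pair had r = 0.93 in Con and 0.69 in Cryo. The strongest pair was a negative one, Mdm2 with Phlda3, at r = -0.94 and rho = -0.92. Its permutation p of 1e-05 is the smallest that 100000 permutations can give (adjusted p = 0.00045). This pair had r = -0.93 in Con, -0.96 in Cryo and -0.94 in the 14 tumors. Removing the trend left r = -0.67 (permutation adjusted p = 0.0400).

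**Figure D4:**
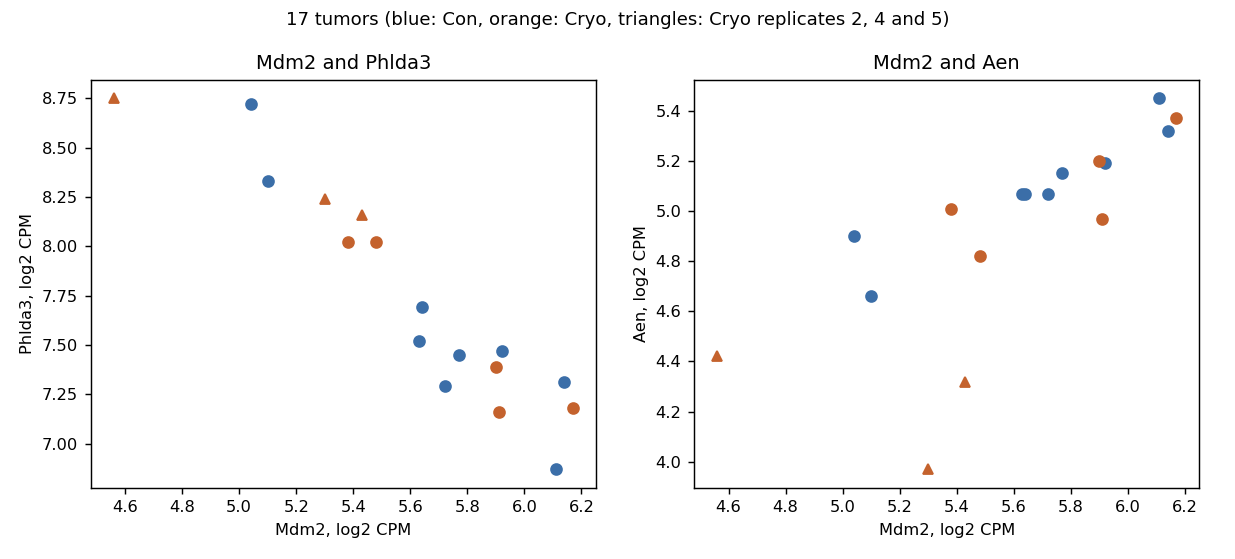
Log2 CPM of Phlda3 (left) and Aen (right) against Mdm2 in 17 tumors, blue for Con, orange for Cryo, triangles for Cryo replicates 2, 4 and 5. Phlda3 falls along Mdm2 in both groups (r = -0.94), and Aen rises with Mdm2 (r = 0.74) with the triangles below the other tumors.

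The other 16 pairs did not pass in the trend-corrected values, some with a much smaller r and some with a similar one. Ccng1 with Aen went from r = 0.59 to 0.58 and Eda2r with Aen from 0.67 to 0.59 (permutation adjusted p = 0.0945 for both). Mdm2 with Zmat3 went from r = 0.77 to 0.07, Aen with Zmat3 from 0.65 to -0.10, and Mdm2 with Bax from -0.73 to -0.03. Bax with Phlda3, the 2 short members, went from 0.71 to -0.43. The sign of r changed in 8 of 45 pairs. Trp53 took part in none of the 20, as 0 of its 9 pairs passed. Its strongest were Bax at r = -0.54 (rho = -0.37, permutation adjusted p = 0.052) and Eda2r at 0.51 (rho = 0.32, permutation adjusted p = 0.0631). The latter was 0.93 within Cryo and 0.07 within Con. Its r was 0.36 with Mdm2 (rho = 0.19, permutation adjusted p = 0.235) and -0.13 with Cdkn1a (rho = -0.08, permutation adjusted p = 0.704). Sesn2 also had 0 pairs that passed, the highest r being 0.35 with Cdkn1a (rho = 0.25, permutation adjusted p = 0.258).

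**Figure D5:**
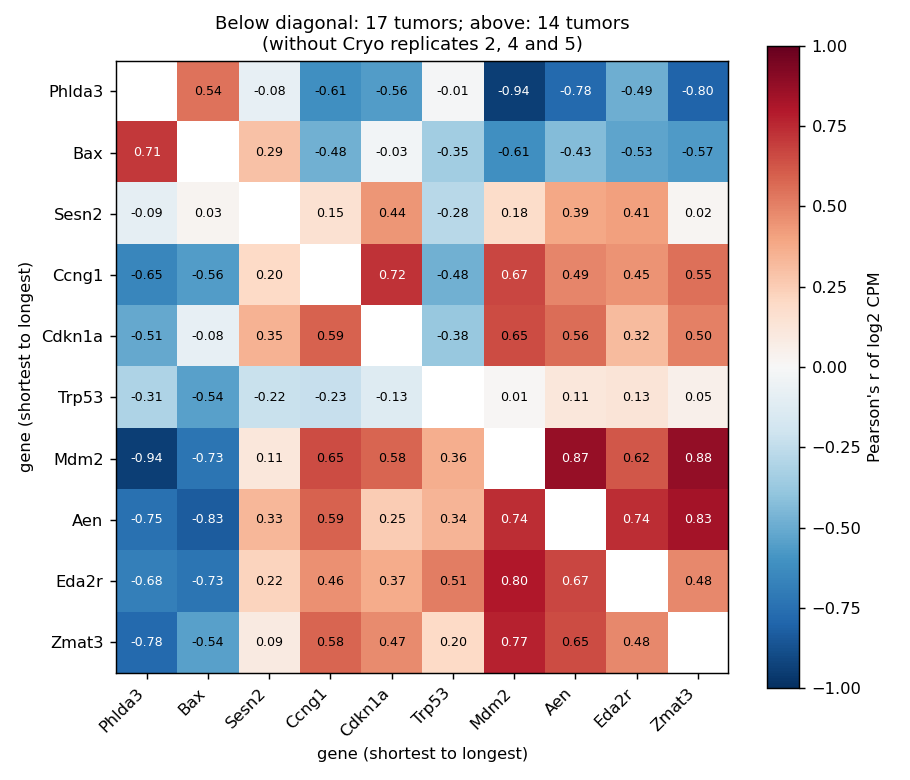
Pearson's r of log2 CPM for the 45 pairs of members, below the diagonal over all 17 tumors and above it over 14 tumors without Cryo replicates 2, 4 and 5, genes from shortest to longest. Phlda3 and Bax are negative (blue) with Mdm2, Aen, Eda2r and Zmat3, which are positive (red) with each other, while no pair of Trp53 (r from -0.54 to 0.51) or Sesn2 passed the adjusted p.

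Of all 13005 genes, those whose log2 CPM followed Cdkn1a most closely over the 17 tumors were Bmp2 (r = 0.89, rho = 0.90), Pim1 (0.85 and 0.76), Zfp36 (0.85 and 0.74), Id2 (0.85 and 0.73) and Mcl1 (0.85 and 0.76). Their r was 0.84 to 0.90 without the 3 Cryo tumors. Zfp36 encodes an mRNA decay factor and Mcl1 an antiapoptotic BCL-2 relative, and none of the 5 belongs to the members. Closest to Trp53 were Maml3 (r = 0.82, rho = 0.81), Mamld1 (0.82 and 0.74), Cdk5r1 (0.82 and 0.77), Cntrob (0.80 and 0.75) and Tfb2m (0.79 and 0.77), with r of 0.67 to 0.75 without the 3 tumors. These genes were picked for their r, which is a description of these 17 libraries.

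In wider gene lists around the members, genes were called about as often as over all genes. The lists covered the p53 network, the BCL-2 family, ATF4 with its targets and the ectodysplasin pathway. Of 118 genes in 9 lists, 116 were in the table and 102 were tested, and 4 (3.92%, beside 4.91% of all genes) had an unadjusted p under 0.05, with 2 higher and 2 lower in Cryo. None passed the adjusted p, and the median log2 fold change was -0.01. Among 13 tested targets of growth arrest and feedback, 1 was lower, the receptor kinase gene Epha2, at 157 ± 25.1 CPM in Con and 130 ± 26.2 in Cryo (log2 fold change -0.27, edgeR, unadjusted p = 0.0478, exact permutation p = 0.0523). Without the 3 Cryo tumors the value for Epha2 was -0.13 (edgeR, unadjusted p = 0.31). None of 12 apoptosis targets was called, and the smallest p was that of Bid, the BH3-only protein cleaved by caspase 8 (log2 fold change -0.20, edgeR unadjusted p = 0.0799). Without the 3 Cryo tumors the value for Bid was -0.06 (edgeR, unadjusted p = 0.544). Among 12 targets of DNA repair and metabolism, 1 was higher. This was Fancc, a subunit of the Fanconi anemia core complex, at 12.7 ± 1.52 CPM in Con and 16.8 ± 3.55 in Cryo. Its log2 fold change was 0.41 (edgeR, unadjusted p = 0.00407, adjusted p = 0.728; exact permutation p = 0.00251), and 0 of 8 Cryo tumors were below the Con median. Without the 3 Cryo tumors it was 0.19 (edgeR, unadjusted p = 0.0945).

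Of 21 tested regulators and cofactors of p53, none was called. The smallest p belonged to Rpl11, a ribosomal protein that can bind MDM2, with a log2 fold change of 0.73 (edgeR, unadjusted p = 0.0597) that was -0.22 without the 3 Cryo tumors. Of 12 genes of the cycle machinery around p21, which were cyclins, their kinases, Pcna and the related inhibitor Cdkn1b, 1 was lower, the D-type cyclin Ccnd3, at 88.2 ± 11.4 CPM in Con and 75.3 ± 11.1 in Cryo (log2 fold change -0.23, edgeR unadjusted p = 0.0429, exact permutation p = 0.0161). Without the 3 tumors the value for Ccnd3 was -0.16 (edgeR, unadjusted p = 0.0884). None of the 12 cell cycle genes repressed through p21 and the DREAM complex was called. Birc5, which encodes survivin, came closest at 0.45 (edgeR, unadjusted p = 0.0727), with -0.18 without the 3 tumors. In the BCL-2 family, 9 genes beside Bax were tested and none was called, the smallest p being that of Bad, a BH3-only protein, at 0.53 (edgeR, unadjusted p = 0.0753) and -0.14 without the 3 tumors. In the ectodysplasin pathway, Traf6, a signaling adaptor, was the 1 gene tested and had a log2 fold change of 0.02 (edgeR, unadjusted p = 0.845).

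The ATF4 list of 10 genes, which holds Atf4 itself beside its targets, was examined because Sesn2 is an ATF4 target. The values of the 10 genes went both ways. Their median log2 fold change was -0.04, with 4 above and 6 below 0, against -0.37 for Sesn2. The values of Slc7a11 (-0.51, edgeR unadjusted p = 0.14), Chac1 (-0.39, edgeR unadjusted p = 0.0729), Vldlr (-0.34, edgeR unadjusted p = 0.0889) and Psat1 (-0.15, edgeR unadjusted p = 0.0526) were below 0 like that of Sesn2. Nearer to 0 were Atf4 itself (0.01, edgeR unadjusted p = 0.933), Trib3 (0.02), Asns (0.05), Atf3 (-0.01) and Ddit4 (-0.07). All of these genes are named after their values were seen. Of the list, 1 gene was called, Ddit3, the transcription factor CHOP. It was higher in Cryo, at 29.9 ± 12.2 CPM in Con and 55.8 ± 39.9 in Cryo (log2 fold change 0.90, edgeR unadjusted p = 0.0199, exact permutation p = 0.0909). Without the 3 Cryo tumors the value for Ddit3 was 0.03 (edgeR, unadjusted p = 0.914).

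Markers of other cells differed between tumors beside these values. The summed level of 7 erythroid markers was 6.16 to 74.7 CPM in Con and 25.1 to 175 in Cryo (exact permutation p = 0.0111, not adjusted for the number of marker sets). Cryo replicates 2, 4 and 5 had 142, 91.6 and 175 CPM. That of 7 adipocyte markers was 18.8 to 117 CPM in Con and 17.2 to 218 in Cryo (exact permutation p = 0.122), with 218, 171 and 186 CPM in the same 3 tumors. Epithelial markers summed to 159, 150 and 229 CPM there, all above the highest Con tumor, macrophage markers to 3060, 2480 and 3440, and epidermal markers to 442, 408 and 664. Macrophage markers summed to 967 to 2700 CPM in Con and 741 to 3440 in Cryo, T cell markers to 22.3 to 113 and 16.8 to 92.2, neutrophil markers to 40.2 to 151 and 64.6 to 115, and endothelial markers to 90.8 to 195 and 91.9 to 149. Epidermal markers summed to 182 to 444 CPM in Con and 205 to 664 in Cryo, and skeletal muscle markers to 1.97 to 152 and 2.84 to 63.2. Apart from the erythroid and adipocyte markers, the marker sets had an exact permutation p of 0.217 to 0.911. The part of these cells in the levels of the members was not tested.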

How the data were processed

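The authors isolated mRNA with magnetic beads, fragmented it and sequenced the libraries on a NovaSeq platform. They deposited, per gene and tumor, a count of reads that is not normalized, together with FPKM, the count divided by gene length and total count, and the listed length. The FPKM were not used for any test. The labels name GRCm38 (mm10). Since the listed start and end equal those of GENCODE M21 (GRCm38) for 512 of 21827 shared genes and for none of the members, no listed positions are printed. The aligner, the counting program and the strandedness are not given in the sources used here, so reads from overlapping genes on opposite strands could not be separated.

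Counts were tested with edgeR 4.0.16 in R 4.3.3 (TMM, filterByExpr by group, quasi-likelihood F test, Benjamini-Hochberg adjustment over the 13005 genes tested). A count of 3 corresponded to 0.168 to 0.222 CPM. Log2 CPM (prior count 2) was compared by two-sided exact permutation over 24310 splits of the 17 tumors, with a smallest possible p of 4.11e-05. For the length and GC offsets, each library's deviations of log2 CPM from the gene means were fitted with natural splines of 4 degrees of freedom, with GC content known for 12981 genes. Alternatives used limma 3.58.1 (voom with quality weights), DESeq2 1.42.0, other filters and scalings, a replicate block and the omission of each tumor. Scripts were tested on simulated counts. No 2 tumors had the same counts, and the labels, from which groups were taken, give 9 controls.

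The members, gene lists and tests were chosen with earlier results of these data known. Genes named are the members, their paralogs, overlapping genes, the 5 genes most correlated with Trp53 and with Cdkn1a, and from each list those with an unadjusted p under 0.05 or, failing that, the smallest p. Wrap53 was added after its position was seen, and the remaining genes of the ATF4 list after their values were seen. Of the 118 list genes, the symbols Trp53cor1 and Pvt1 were not matched. Promoter sequences came from RefSeq.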

Additional observations from a re-analysis of the deposited data

Results flagged for a closer look

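Eda2r in Cryo replicate 5 lay far below its group. It had 0.675 CPM there, against 1.85 to 3.86 CPM in the other 7 Cryo tumors, and on log2 CPM, the scale on which all groups were examined, the gap to its nearest neighbour was 0.563 of the whole range, above Dixon's critical value of 0.526 for 8 samples. On the linear CPM scale the gap was 0.369 of the range, below that value. The tumor also had the highest short-gene index (0.86), the lowest total count (13524899) and the lowest Mdm2 level (23.4 CPM). Of 20 groups of values examined in this way, 1 stood out, which is about the 1 in 20 that chance gives.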

How the results depend on the processing

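The lower Sesn2 level kept its direction in every alternative run and an edgeR, DESeq2 or limma unadjusted p under 0.05 in all except the replicate block (-0.33, edgeR unadjusted p = 0.0807). Leaving out each tumor in turn gave -0.44 to -0.31. The median log2 fold change of the members stayed between -0.13 and -0.04. No gene passed an adjusted p under 0.05 in any alternative, the smallest adjusted p being 0.0569 (limma voom, 1312 genes with an unadjusted p under 0.05; DESeq2 had 881).

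Genes past the fold and p criterion numbered 64, but 432 with no filter on low counts, 33 with the replicate block, 111 without the 5 tumors of highest short-gene index (chosen after seeing the data) and 34 to 165 when each tumor was left out. Genes with an unadjusted p under 0.05 numbered 639, but 1312 with limma voom, 992 with no filter, 325 without Cryo replicates 2, 4 and 5, and 252 to 1388 when each tumor was left out. The number of members called went from 1 to 2 with limma voom and was 1 to 4 when each tumor was left out. It was 3 without Con replicate 5, 4 without Cryo replicate 7 and 2 without Cryo replicate 3 or 6, Bax being called each time at 0.55 to 0.56. By exact permutation it was 0 to 3, with 0 without Con replicate 1, 3, 4, 8 or 9 or Cryo replicate 1, 2 or 3. Passing pairs of members went from 20 to 9 without Cryo replicates 2, 4 and 5 and to 4 with the length and GC trend removed (chosen after seeing the data). The cause was not tested.

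Directions were reversed without Cryo replicates 2, 4 and 5 for Mdm2 (0.07), Bax (-0.17), Phlda3 (-0.14), Rpl11 (-0.22), Birc5 (-0.18) and Bad (-0.14), and without the 5 tumors for Bax (-0.01) and Birc5 (-0.05). Among the paralogs and neighbours, leaving out Cryo replicates 2, 4 and 5 also reversed Mdm4 (0.16), Sesn3 (0.10), Bak1 (-0.22) and Wrap53 (-0.05). The offsets reversed Phlda3 (-0.01), upper-quartile scaling Zmat3 (-0.01), the block Zmat3 (-0.03) and limma voom Traf6 (-0.07). Leaving out each tumor gave -0.01 to 0.04 for Trp53, -0.08 to 0.05 for Zmat3 and -0.06 to 0.06 for Traf6.

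Whether the labels' replicate numbers pair the tumors could not be told from the counts. Same-numbered tumors correlated at -0.51 to 0.64 in 8 pairs, 4 of them over 0.1. Of the Cryo tumors, 2 correlated best with the Con tumor of the same number. The replicate block used the numbers present in both groups and so left out Con replicate 9. Under the replicate block, 1 member was called, Eda2r (-0.53, unadjusted p = 0.0419). Read depth limits Eda2r, with 7 to 101 counts per tumor, and the deposited counts do not separate cell types or splice forms.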
